A study of Mus musculus with 4 samples.

Results

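The 9 genes described here are Mapk3, which encodes a kinase of the ERK type, and 8 genes of dual-specificity phosphatases (DUSPs), namely Dusp1, Dusp2, Dusp4, Dusp5, Dusp6, Dusp7, Dusp10 and Dusp16. They were taken by their symbols out of the 23305 genes with a unique symbol, and the rule that takes them uses no measured value. The libraries were made from RNA of quiescent follicular B cells of the spleen, sorted from female mice as B220+, CD23-high and CD21-low cells negative for CD80 and for the switched isotypes IgA, IgE, IgG1, IgG2a, IgG2b and IgG3. There were 2 wild-type (WT) libraries from C57BL/6 mice and 2 Ets1-/- libraries from mice of the mixed C57BL/6 x 129Sv background. The Ets1 mutation was germline and present in every cell of the mouse, and the age of these mice was not given in the sources used here. Strain and genotype changed together in these libraries and cannot be told apart. Each value is an FPKM, the fragments scaled to the length of the transcript and the number of mapped reads of the library, so the levels of different genes can be set side by side. The number of reads behind a value is unknown.

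ERK kinases carry signals of the B cell receptor and other surface receptors from Ras through the kinases Raf and MEK to targets in the cytoplasm and nucleus. They are active when a threonine and a tyrosine of their activation loop are phosphorylated, and DUSPs of the MAP kinase phosphatase group remove both phosphates. Dusp1, Dusp2, Dusp4 and Dusp5 encode nuclear phosphatases whose genes are typically induced by the signals that they later limit. Dusp6 and Dusp7 encode cytoplasmic phosphatases that prefer ERK, and the products of Dusp10 and Dusp16 act mainly on the stress-activated kinases JNK and p38. Ets1 is a transcription factor that keeps B cells quiescent, and several ETS family factors are themselves substrates of ERK.

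Upstream sequences are shown for the 3 genes with the largest differences between the genotypes among the 7 genes of this group with an entry in the RefSeq promoter table (build GRCm38.p6). Dusp4 and Mapk3 have no entry there. Each run gives the 250 bases before the annotated start site, 5′ to 3′ on the strand of the gene. Capitals mark CArG boxes, the binding sequence of serum response factor, and the letters TGACG, the core of the cAMP response element, on either strand. Dusp7 lies at chr9:106368382-106368631 on the plus strand, Dusp5 at chr19:53528895-53529144 on the plus strand and Dusp1 at chr17:26508473-26508722 on the minus strand.
Dusp7: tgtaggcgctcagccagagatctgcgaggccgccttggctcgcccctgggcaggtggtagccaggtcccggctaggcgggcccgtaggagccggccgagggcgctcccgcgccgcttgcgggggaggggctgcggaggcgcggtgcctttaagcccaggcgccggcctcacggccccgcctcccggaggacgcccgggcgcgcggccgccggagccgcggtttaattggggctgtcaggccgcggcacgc
Dusp5: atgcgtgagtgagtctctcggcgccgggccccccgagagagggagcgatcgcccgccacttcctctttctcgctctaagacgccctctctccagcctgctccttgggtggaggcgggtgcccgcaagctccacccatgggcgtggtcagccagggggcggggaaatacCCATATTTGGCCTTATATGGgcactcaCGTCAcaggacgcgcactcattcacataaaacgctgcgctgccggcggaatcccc
Dusp1: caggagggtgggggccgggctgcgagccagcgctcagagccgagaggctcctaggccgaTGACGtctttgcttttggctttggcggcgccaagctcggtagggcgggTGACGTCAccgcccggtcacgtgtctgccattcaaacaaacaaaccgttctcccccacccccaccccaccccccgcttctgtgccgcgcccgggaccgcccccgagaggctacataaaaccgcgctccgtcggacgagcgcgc

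In these windows Dusp5 held 2 adjoining CArG boxes, at 82 and 72 bases before the start site, and Dusp1 held the full element TGACGTCA at 143 bases before it. The full element contains TGACG on both strands. CArG boxes were found in 1.47% of 32851 promoter windows of the same length and TGACGTCA in 1.55%, whereas TGACG was found in 17.8%. Dusp7 held no marked match and had a G and C content of 77.2%. The short ETS core GGAA, which is not marked, occurred in 93.4% of all windows on either strand and was absent from the windows of Dusp7, Dusp1 and Dusp10. A match of letters is no evidence that a factor binds there, and a missing match says only that these letters are not in the window.

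Ets1 itself was at 231 and 275 FPKM in the WT libraries and at 229 and 229.8 FPKM in the Ets1-/- libraries. The FPKM of the whole gene therefore does not check the genotype labels, because the mutation removes only part of the exons. The markers of B cells Cd79a, Cd79b, Ms4a1 and Pax5 were between 201 and 2051 FPKM in every library. Neutrophil markers summed to 116.8 and 97.2 FPKM in WT and to 2573 and 706 FPKM in Ets1-/- B cells. Of 10 tested, Elane and Mpo reached a mean of 1 FPKM only in Ets1-/- B cells and so could count only as higher. Of the other 8, 7 were higher in both Ets1-/- libraries without overlap, beside 41.6% in either direction among all tested genes. Of these, Ngp, Ltf and Camp were called as higher by the test described below, which called 1.7% of all tested genes. The sums for erythroid markers were 6.62 and 5.38 FPKM in WT and 89.9 and 28.7 FPKM in Ets1-/- B cells, and those for monocyte and macrophage markers were 70.4 and 34.4 FPKM against 163 and 100.6 FPKM. Among the monocyte and macrophage markers Emr1 was called as higher, Lyz2 made up most of the WT sums, and 7 of 10 overlapped between the genotypes. The erythroid gene Hbb-b2 was at or near 0 in every library, at no more than 0.000307 FPKM. Of 4 tested erythroid markers, Hba-a2 and Alas2 reached a mean of 1 FPKM only in Ets1-/- B cells. Hba-a2 had 0.00849 and 0.894 FPKM in WT and 24.4 and 0.0113 FPKM in Ets1-/- B cells, with overlap. T and NK cell markers summed to between 115 and 160 FPKM, with overlap between the genotypes. Markers of B cells and plasma cells outside the sort gate summed to 185 and 208 FPKM in WT and to 157 and 167 FPKM in Ets1-/- B cells. Of the markers in these 2 lists, 1 T cell gene, Thy1, was called as lower and none outside the gate was called. The sums hide differences of single genes. Of 6 markers outside the gate with 1 FPKM in both genotypes, Sdc1 was higher and 2, Xbp1 and Irf4, were lower without overlap. Of 9 such T and NK cell markers, 1 was higher and 4 were lower without overlap. Prdm1 reached 1 FPKM only in Ets1-/- and Ncr1 and Klrb1c only in WT B cells, so their direction was fixed by the filter. Cr2, the CD21 gene whose product was part of the sort, had 101.6 and 116 FPKM in WT and 65.1 and 30.0 FPKM in Ets1-/- B cells and was not called. In bulk RNA, a change in the share of cells of a type cannot be told apart from a change of RNA per cell, and the part of these other cells in the results below was not tested.

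All 9 genes were expressed, with a mean of at least 1.64 FPKM in each genotype, and all 9 entered the comparison of genotypes among 10949 genes with a mean of at least 1 FPKM in either genotype. In WT B cells the highest levels were those of Dusp2, at 363 ± 44.3 FPKM (SD, n = 2), and Dusp1, at 190 ± 76.2 FPKM (SD, n = 2). These levels exceeded the WT means of 97.8% and 96.0% of the tested genes. Dusp6 and Mapk3 followed at 36.9 ± 6.99 and 34.7 ± 4.4 FPKM (SD, n = 2), and the libraries of these neighbours overlapped. Next came Dusp7 at 19.7 ± 4.38 FPKM and Dusp4 at 16.3 ± 1.28 FPKM (SD, n = 2), which also overlapped. Dusp5 at 9.71 ± 2.11, Dusp10 at 6.86 ± 0.520 and Dusp16 at 4.92 ± 0.647 FPKM (SD, n = 2) were the lowest, without overlap between neighbours.

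In Ets1-/- B cells the order was different. Dusp1 stood first at 542 ± 86.3 FPKM (SD, n = 2), ahead of Dusp2 at 388 ± 81.2 FPKM (SD, n = 2). Dusp6, Dusp4 and Mapk3 lay between 57.5 and 36.1 FPKM by their means, and Dusp4 and Mapk3 were the only neighbours in this order whose libraries overlapped. Dusp7 moved from the fifth place to the last, below Dusp10, Dusp16 and Dusp5.

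**Figure D1:**
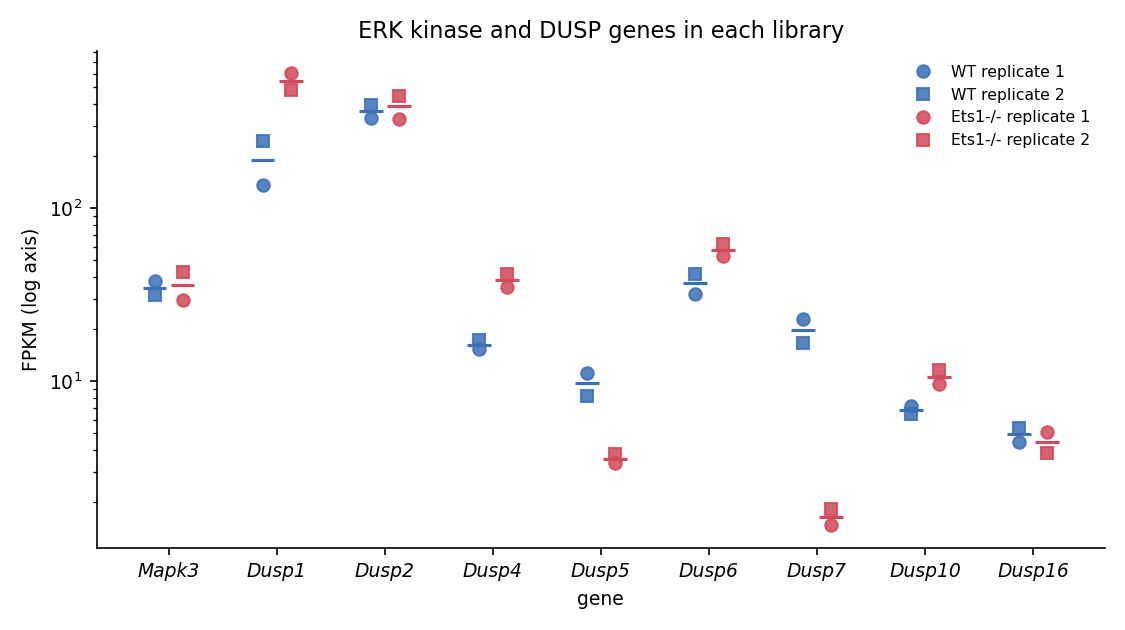
FPKM of Mapk3 and 8 DUSP genes in each of the 4 libraries on a log axis, with WT in blue, Ets1-/- in red, circles for replicate 1, squares for replicate 2 and short lines at the mean of 2 libraries. Dusp7 and Dusp5 sit lower and Dusp1, Dusp4, Dusp6 and Dusp10 higher in both Ets1-/- libraries, while the libraries of Mapk3, Dusp2 and Dusp16 overlap.

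To ask which of these genes differ in the absence of Ets1, log2(FPKM + 1) values were compared between the genotypes with limma. Calls required a change of 1 or more on that scale in either direction, together with a p adjusted by the method of Benjamini and Hochberg (BH) of 0.05 or less. The test called 2 of the 9 genes, Dusp7, which fell, and Dusp4, which rose, where 1.7% of all tested genes were called, 0.822% as lower and 0.877% as higher in Ets1-/- B cells. The genotypes did not overlap for 6 of the 9 genes, 4 of them higher and 2 lower in Ets1-/- B cells, beside 41.6% of all tested genes. All 6 also had an unadjusted p under 0.05, as did 13.3% of all tested genes. The median log2 fold change was 0.08 over the 9 genes and -0.02 over all tested genes. With 2 libraries against 2, an exact permutation test of a single gene cannot give a p under 0.333, so the test used is the model across all genes, in which the spread is that between separate sorted samples.

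Dusp7 showed the largest difference of the group. In mm9, the build of all gene positions given from here on, it spans bases 106270963 to 106278055 of chromosome 9 (plus strand), 73.7 Mb from Ets1 on the same chromosome. Its FPKM was 22.8 and 16.6 in the WT libraries and 1.47 and 1.82 in the Ets1-/- libraries. The lower WT value was 9.11 times the higher Ets1-/- value, while the replicates differed by 1.37-fold in WT and 1.24-fold in Ets1-/- B cells. The WT mean of 19.7 ± 4.38 FPKM (SD, n = 2) was 12.0 times the Ets1-/- mean of 1.64 ± 0.246 FPKM (SD, n = 2). On the log2(FPKM + 1) scale Dusp7 fell by 2.95 (95% confidence interval -3.47 to -2.44, standard error 0.20), with a BH-adjusted limma p of 0.00669. In WT B cells Dusp7 stood above 60.2% of the tested genes and in Ets1-/- B cells above 8.21%. Without Ets1-/- replicate 1 the adjusted p from limma was 0.0509 and without Ets1-/- replicate 2 it was 0.0567, with log2 fold changes of -2.86 and -3.05. Of 15 other tested genes within 250 kb of Dusp7, 0 were called by limma, beside 1.7% of all tested genes. An unadjusted limma p under 0.05 was found for 2 of these 15 genes, beside 13.3% of all tested genes. The log2 fold changes of the 15 genes lay between -1.34 and 0.51.

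Dusp6 encodes the other cytoplasmic ERK phosphatase of the group and was higher in Ets1-/- B cells. The gene, on chromosome 10 from 98725865 to 98730122, had 31.9 and 41.8 FPKM in WT and 53.2 and 61.8 FPKM in Ets1-/- B cells. Both Ets1-/- values lay above both WT values, with 1.27-fold between the nearest libraries of the 2 genotypes and 1.31-fold between the WT replicates. Its log2 fold change of 0.64 (95% confidence interval 0.16 to 1.12) had a BH-adjusted limma p of 0.220 and was not called. The ratio of Dusp6 to Dusp7 within a library, which no linear scaling of a library can alter, was 1.40 and 2.53 in WT and 36.2 and 34.0 in Ets1-/- B cells. The sum of the 2 genes was 54.7 and 58.4 FPKM in WT and 54.7 and 63.6 FPKM in Ets1-/- B cells, so the genotypes overlapped in this sum and differed in its makeup.

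Dusp4, whose product acts on ERK in the nucleus, was the gene called as higher. It lies on chromosome 8 from 35870351 to 35882948 on the plus strand. Dusp4 had 15.4 and 17.2 FPKM in WT and 34.9 and 41.8 FPKM in Ets1-/- B cells. The lower Ets1-/- value was 2.03 times the higher WT value, and the replicates of a genotype differed by at most 1.2-fold. Its mean rose 2.35-fold, from 16.3 ± 1.28 to 38.4 ± 4.85 FPKM (SD, n = 2), or by 1.18 on the log2(FPKM + 1) scale (95% confidence interval 0.78 to 1.58, standard error 0.16) with a BH-adjusted limma p of 0.0420. Leaving out any 1 of the 4 libraries kept the difference between 1.06 and 1.31 on the log2 scale, but the adjusted p from limma was 0.257 without WT replicate 1, 0.153 without WT replicate 2, 0.062 without Ets1-/- replicate 1 and 0.10 without Ets1-/- replicate 2.

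Dusp5 encodes a nuclear phosphatase specific for ERK and lies on chromosome 19 from 53603599 to 53616921 on the plus strand. It was the gene of the group with 2 CArG boxes in the sequence shown. Its FPKM was 11.2 and 8.22 in WT and 3.34 and 3.78 in Ets1-/- B cells, with both Ets1-/- values below both WT values. The WT mean was 2.73 times the Ets1-/- mean, at 9.71 ± 2.11 against 3.56 ± 0.305 FPKM (SD, n = 2). The log2 fold change of Dusp5, -1.22 (95% confidence interval -1.70 to -0.73, standard error 0.19), was past the fold required, and its BH-adjusted limma p of 0.0568 missed the threshold. With 0.1 in place of 1 added to each FPKM it was called, with a BH-adjusted limma p of 0.0497. Within a library, the ratio of Dusp4 to Dusp5 was 1.37 and 2.09 in WT and 10.4 and 11.1 in Ets1-/- B cells. The pairs of genes set against each other here were chosen with their values known, so these ratios are descriptions.

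**Figure D2:**
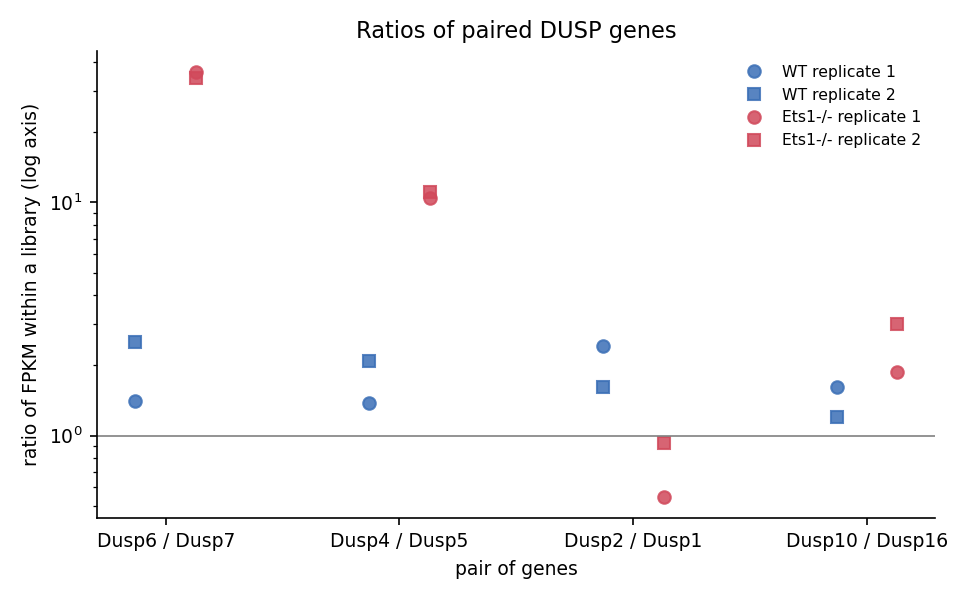
Ratio of FPKM of 4 pairs of DUSP genes within each library on a log axis, with WT in blue, Ets1-/- in red, circles for replicate 1 and squares for replicate 2, and a grey line at equal levels. Dusp6 over Dusp7 lies at 1.40 and 2.53 in WT and at 36.2 and 34.0 in Ets1-/- B cells, and Dusp4 over Dusp5 at 1.37 and 2.09 against 10.4 and 11.1.

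Dusp1, the best known inducible phosphatase of the group, acts on p38, JNK and ERK in the nucleus. Its gene lies on chromosome 17 from 26642535 to 26645464 on the minus strand. It had 136 and 244 FPKM in the WT libraries and 603 and 481 FPKM in the Ets1-/- libraries. The lower Ets1-/- value was 1.97 times the higher WT value, and the WT replicates differed by 1.79-fold. The mean was 2.85-fold higher in Ets1-/- B cells. Of the Ets1-/- libraries, replicate 1, which had the larger sum of neutrophil markers, was the higher for Dusp1 and the lower for Dusp4, Dusp6 and Dusp10. An order of 2 libraries cannot link these levels to the neutrophil markers, and a link was not tested. For Dusp1 the log2 fold change of 1.56 (95% confidence interval 0.73 to 2.38, standard error 0.32) was the second largest of the group in size, and the BH-adjusted limma p of 0.109 missed the threshold. Without WT replicate 2, the WT library with the higher value, the log2 fold change was necessarily larger, at 1.97, and Dusp1 was called, with a BH-adjusted limma p of 0.023. It was not called without WT replicate 1, Ets1-/- replicate 1 or Ets1-/- replicate 2, where the log2 fold changes were 1.14, 1.39 and 1.72 and the BH-adjusted limma p values 0.221, 0.183 and 0.215.

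Dusp2, a nuclear phosphatase of lymphocytes, had 332 and 394 FPKM in WT and 331 and 445 FPKM in Ets1-/- B cells. The gene lies on chromosome 2 from 127161895 to 127164112, and its genotypes overlapped. The log2 fold change was 0.08 with a 95% confidence interval from -0.49 to 0.66 and a BH-adjusted limma p of 0.951, and its sign turned with quantile normalization. Dusp2 thus exceeded Dusp1 by 2.43-fold and 1.62-fold in the WT libraries, while in the Ets1-/- libraries its level was 0.548 and 0.926 of that of Dusp1. Of the summed FPKM of the 8 DUSP genes, Dusp2 made up 59.1% and 53.7% in WT and 31.7% and 42.4% in Ets1-/- B cells. Dusp1 made up 24.3% and 33.3% in WT and 57.9% and 45.8% in Ets1-/- B cells. The sum itself was 561 and 734 FPKM in WT and 1041 and 1051 FPKM in Ets1-/- B cells.

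Dusp1 was read beside immediate early genes, which many signals, including the handling of cells, induce within minutes. Of a list of 20 genes, 18 were tested, and 2 of these, Ier3 and Nr4a2, reached 1 FPKM only in Ets1-/- B cells and so could count only as higher. Of the other 16 genes, 10 were higher in both Ets1-/- libraries than in both WT libraries and 0 were lower, beside 41.6% without overlap in either direction among all tested genes. Of these 16, 4 had an unadjusted p under 0.05, all higher in Ets1-/- B cells, beside 13.3% of all tested genes, and 0 were called by limma, beside 1.7%. Egr1, a zinc finger factor induced by ERK, had 132 and 250.2 FPKM in WT and 636 and 462 FPKM in Ets1-/- B cells. Fos, the AP-1 subunit and the highest gene of the list, had 687 and 1283 FPKM in WT and 2120 and 2307 FPKM in Ets1-/- B cells, and Jun, its partner, had 549 and 991 FPKM against 1190 and 1432 FPKM.

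WT replicate 2 was the higher WT library for Dusp1 and for Egr1, Fos, Fosb and Jun alike. Fosb had 64.5 and 206 FPKM in WT and 577 and 360 FPKM in Ets1-/- B cells. Ier3, a stress-induced early gene, was low at 0.530 and 0.181 FPKM in WT and 1.65 and 0.907 FPKM in Ets1-/- B cells, and its WT libraries stood in the reverse order. The ratio of Dusp1 to Egr1 was 1.03 and 0.976 in WT and 0.949 and 1.04 in Ets1-/- B cells, a description of genes chosen after the values were seen. The ratio of Dusp1 to Fos was 0.198 and 0.190 in WT and 0.285 and 0.209 in Ets1-/- B cells, without overlap. Leaving out WT replicate 2, the higher WT library for these genes, gave calls for Egr1, Fos and Fosb, and leaving out any 1 of the other 3 libraries gave none for the immediate early genes.

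**Figure D3:**
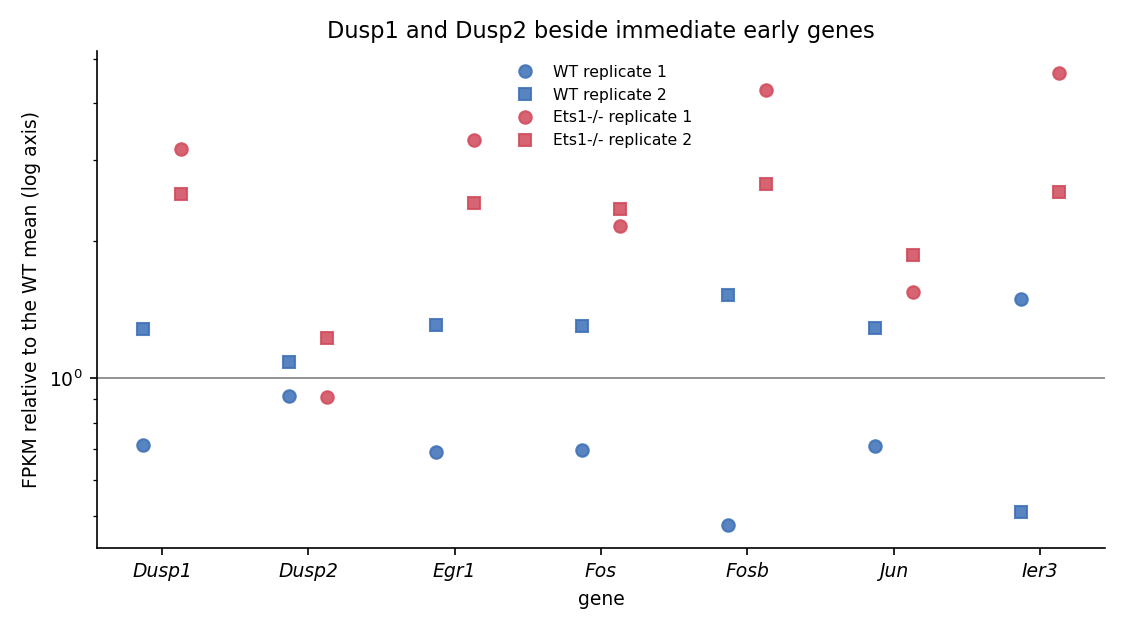
FPKM of Dusp1, Dusp2 and 5 immediate early genes in each library relative to the WT mean of that gene, on a log axis, with WT in blue, Ets1-/- in red, circles for replicate 1 and squares for replicate 2. Dusp1, Egr1, Fos, Fosb and Jun lie above the WT libraries in both Ets1-/- libraries, and Dusp2 does not. Ier3 reached 1 FPKM only in Ets1-/- B cells, so its direction was fixed by the filter. The 5 immediate early genes were plotted for their low p or high level. Others of the list, such as Egr3 and Ier5, overlapped between the genotypes and are not plotted. WT replicate 2 lies above WT replicate 1 for all of the plotted genes but Ier3.

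Dusp10 and Dusp16, the phosphatases of JNK and p38, were the low members of the group in WT B cells. Dusp10, on chromosome 1 from 185837181 to 185899515, had 7.22 and 6.49 FPKM in WT and 9.58 and 11.5 FPKM in Ets1-/- B cells. Both Ets1-/- values were above both WT values, with a log2 fold change of 0.55 (95% confidence interval 0.15 to 0.96) that was not called, with a BH-adjusted limma p of 0.206. The gene 1700056E22Rik overlaps Dusp10 on the opposite strand and had 1.97 and 3.65 FPKM in WT and 6.86 and 5.06 FPKM in Ets1-/- B cells, and since the counting was not stated to use the strand, reads of the 2 genes cannot be separated. Dusp16, on chromosome 6 from 134665488 to 134742643, had 4.46 and 5.38 FPKM in WT and 5.11 and 3.83 FPKM in Ets1-/- B cells. Its genotypes overlapped, and the log2 fold change of -0.12 (95% confidence interval -0.60 to 0.36) had a BH-adjusted limma p of 0.896.

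Mapk3 itself, the kinase gene of the group, showed no detectable difference. It lies on chromosome 7 from 133903115 to 133909333 on the plus strand and had 37.8 and 31.6 FPKM in WT and 29.6 and 42.5 FPKM in Ets1-/- B cells. Both WT values lay between the Ets1-/- values, and the log2 fold change was 0.04 with a 95% confidence interval from -0.52 to 0.60 and a BH-adjusted limma p of 0.982.

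**Figure D4:**
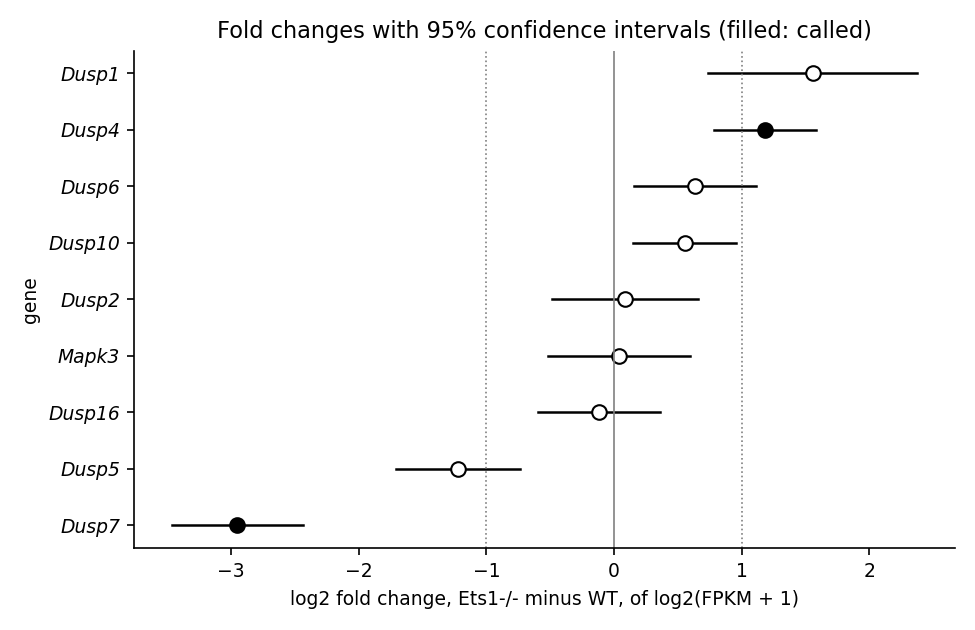
Log2 fold change of each gene between Ets1-/- and WT B cells on the log2(FPKM + 1) scale, as points with 95% confidence intervals from limma, filled where the gene was called, with dotted lines at a 2-fold change. Dusp7 at -2.95 and Dusp4 at 1.18 are the filled points, Dusp1 at 1.56 and Dusp5 at -1.22 lie past 2-fold without a call, and the intervals of Mapk3, Dusp2 and Dusp16 include 0.

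The remaining genes of the pathway were read from 7 gene lists with 96 tested genes, of which 1 was called, beside the 1.7% of all tested genes. The core of the cascade showed no called gene. Of 11 tested genes of Raf, MEK, ERK and their scaffolds, 0 were called by limma, with log2 fold changes between -0.22 and 0.44. Of these, 0 had an unadjusted p under 0.05, beside 13.3% of all tested genes. The highest of these were Pebp1, an inhibitor of Raf, at 101 to 127 FPKM, and Lamtor2, a scaffold subunit, at 96.2 to 116 FPKM. The lowest unadjusted p belonged to Lamtor3, the partner of Lamtor2 that binds MEK, at 23.7 and 21.7 FPKM in WT and 35.2 and 27.5 FPKM in Ets1-/- B cells. Pea15a, which holds ERK in the cytoplasm, the scaffold Ksr1 and the kinase Araf had log2 fold changes of -0.22, -0.17 and 0.16.

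Upstream of Raf, 11 tested genes of Ras proteins and their exchange factors gave 0 calls by limma. An unadjusted limma p under 0.05 was found for 3 of them, beside 13.3% of all tested genes. Rasgrp2, an exchange factor that acts mainly on Rap, was the highest, with 151 and 167 FPKM in WT and 93.9 and 101 FPKM in Ets1-/- B cells. The difference for Rasgrp2 of -0.70 on the log2 scale had a BH-adjusted limma p of 0.116. Rasgrp1 and Rasgrp3, the diacylglycerol-responsive exchange factors of lymphocytes, had log2 fold changes of 0.43 and 0.04. Rasgrp4 was low at 4.78 and 3.55 FPKM in WT and 2.46 and 1.97 FPKM in Ets1-/- B cells.

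Of 16 tested brakes of the pathway other than DUSPs, 0 were called by limma. Spry1 reached 1 FPKM only in Ets1-/- and Spry2 only in WT B cells, so their direction was fixed by the filter. Of the other 14, 2 were higher and 5 lower in Ets1-/- B cells with an unadjusted p under 0.05, beside 13.3% of all tested genes. Rasal3, a Ras GTPase-activating protein of blood cells, had 121 and 109 FPKM in WT and 49.5 and 65.0 FPKM in Ets1-/- B cells, a log2 fold change of -1.0 with a BH-adjusted limma p of 0.0820. Spry2, a feedback inhibitor of the pathway, had 1.15 and 1.31 FPKM in WT and 0.254 and 0.228 FPKM in Ets1-/- B cells. Rasa4, a further Ras GTPase-activating protein, had 10.7 and 9.17 FPKM in WT and 3.94 and 5.62 FPKM in Ets1-/- B cells. Ptpn7, a tyrosine phosphatase that acts on ERK and p38, had 30.8 and 25.7 FPKM against 12.7 and 17.8 FPKM. The highest brakes, Dok3 and Rasa3, had log2 fold changes of 0.38 and -0.02.

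Among 12 tested genes of other dual-specificity phosphatases 0 were called by limma. Dusp18 and Dusp23 reached 1 FPKM in a single genotype. Of the other 10 genes 1, Dusp3, had an unadjusted p under 0.05, beside 13.3% of all tested genes. Dusp3, an atypical phosphatase that can act on ERK and JNK, had 4.87 and 4.07 FPKM in WT and 2.81 and 2.63 FPKM in Ets1-/- B cells. Dusp23 had 2.28 and 1.13 FPKM in WT and 0.348 and 0.530 FPKM in Ets1-/- B cells. Dusp22 and the cofilin phosphatase gene Ssh2 had log2 fold changes of -0.33 and -0.40, and Dusp11, the highest of the list, had -0.08. Dusp15, Dusp21 and Dusp27 were listed at 0 in all 4 libraries.

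Of 13 tested ERK effectors 1, Elk3, was called, beside 1.7% of all tested genes. No other effector had an unadjusted limma p under 0.05, beside 13.3% of all tested genes. The product of Elk3 is an ETS factor that binds next to serum response factor at CArG boxes. Elk3 fell from 16.0 and 16.6 FPKM in WT to 6.91 and 7.76 FPKM in Ets1-/- B cells, a log2 fold change of -1.06 (standard error 0.14, limma, BH-adjusted p = 0.040). It was not called with any 1 of the 4 libraries left out, without the filter on low values, with quantile normalization or with the replicate block. The kinases downstream of ERK, Rps6ka1, Rps6ka3, Rps6ka4 and Mknk2, had log2 fold changes between -0.32 and 0.28.

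The parallel cascade of JNK and p38 had 0 calls by limma among 15 tested genes. Mapk13 reached 1 FPKM only in Ets1-/- B cells. Of the other 14 genes 2 had an unadjusted p under 0.05, both lower in Ets1-/- B cells, beside 13.3% of all tested genes. Mapk11, a p38 gene, had 69.9 and 68.7 FPKM in WT and 44.2 and 47.2 FPKM in Ets1-/- B cells, a log2 fold change of -0.59 with a BH-adjusted limma p of 0.134. Mapk12, a further p38 gene, had 18.3 and 21.2 FPKM in WT and 10.5 and 4.0 FPKM in Ets1-/- B cells. Mapk13 was at most 0.198 FPKM in WT and had 1.38 and 0.634 FPKM in Ets1-/- B cells. The JNK gene Mapk8 and Mapkapk2, the kinase below p38, had log2 fold changes of -0.46 and 0.20.

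**Figure D5:**
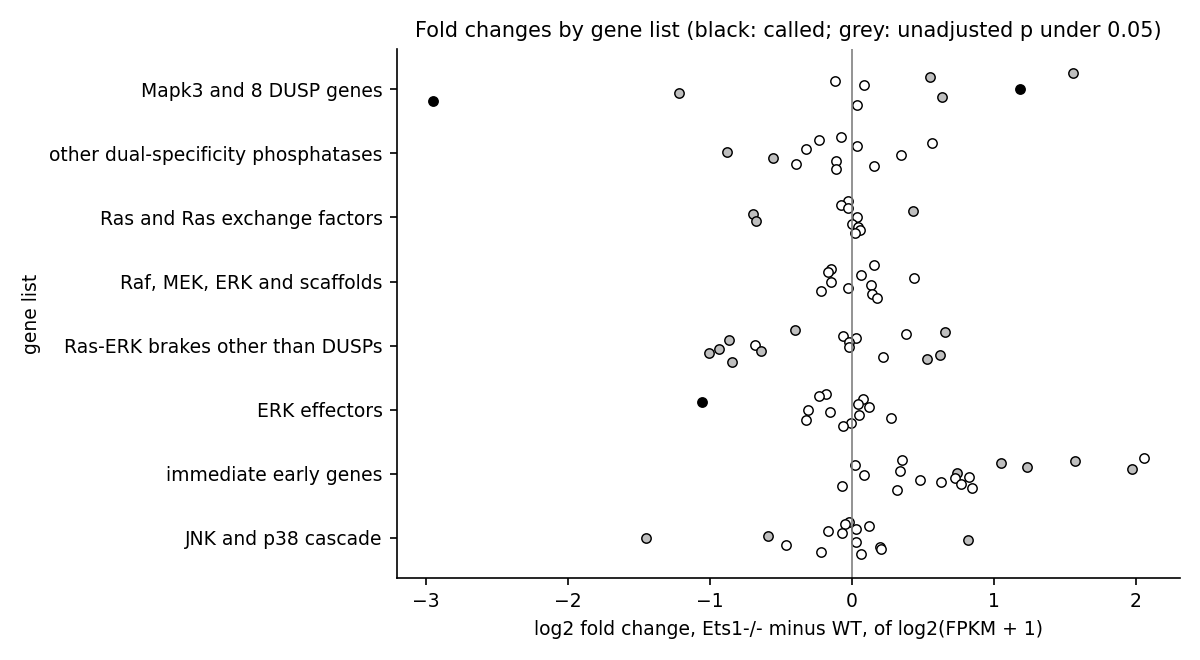
Log2 fold change between Ets1-/- and WT B cells on the log2(FPKM + 1) scale for each tested gene of 8 lists, one row per list, with black points for called genes, grey for an unadjusted p under 0.05 and open for the rest. The 3 black points are Dusp7 and Dusp4 in the top row and Elk3 among the ERK effectors, and the genes of Raf, MEK, ERK and scaffolds lie between -0.22 and 0.44.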

How the data were processed

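RNA of sorted follicular B cells from 2 WT and 2 Ets1-/- samples was analysed. The authors aligned the reads to mm9 with TopHat2 2.0.13 and deposited 1 FPKM value per gene symbol and library from Cuffdiff, per the labels, and the annotation and any scaling between libraries are not given in the sources used here. Each file holds 23309 entries, of which 4 with repeated symbols were left out, and 10469 to 10716 per library were at 1 FPKM or more. The methods give only a range of reads per sample, and FPKM holds no counts. The depth of each library and the reads behind each value are thus unknown, and precision rests on the spread between the 2 replicates.

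The design allowed for counts or FPKM, and the files hold FPKM, so limma 3.58.1 (R 4.3.3, lmFit and eBayes with trend) was run on log2(FPKM + 1), with 2 residual and 3.10 prior degrees of freedom, over 10949 genes with a mean of at least 1 FPKM in either genotype. This scale understates changes of low genes. P-values are two-sided, adjusted over all tested genes. Data were simulated with changes of 200 genes on the log2(FPKM + 1) scale, each time among 10949 genes. Of 200 genes changed 2-fold on that scale 0 were called, of 200 changed 4-fold 134, and of 200 changed 8-fold 180. The simulated spread of each gene was that seen between its own replicates, and the effect of this setting was not tested. In the data, unlike in this simulation, a 2-fold change of FPKM stays under the required fold because of the added 1. Positions are from GENCODE M1 (mm9, all 9 genes matched) and promoters from RefSeq (GRCm38.p6, 7 of 9). Motifs were searched with Python 3.11.15.

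The genes and lists were chosen with earlier results of these data known. Named are the 9 genes and, of each pathway list, genes called, the 4 with the lowest p and the 2 highest in expression. The neighbouring genes were named outside this rule, after their values were seen, and some genes of the lists are not reported here. Alternatives covered the pseudocount, filter, scaling, variance estimate, fold minimum, replicate block and each library left out.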

Additional observations from a re-analysis of the deposited data

How the results depend on the processing

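The count of called genes among the 9 was 2, Dusp4 and Dusp7. It was 1 (Dusp7) with no filter on low values, and 4 (Dusp1, Dusp4, Dusp5 and Dusp7) each with a robust variance estimate, with the replicate number as a block and with the numbers crossed in that block, an alternative added after the data were seen. Leaving out 1 library at a time gave 0 to 2. Over all tested genes the 186 calls became 75 without the filter, 305 with the robust estimate, 266 with the replicate block and 409 with the crossed block, and 130 to 144 with 1 library left out, where the lone library is taken to vary like the other genotype. The pathway lists, with 1 call, had 0 without the filter, 0 with quantile normalization, 0 with the replicate block, 2 with the robust estimate, 7 with the crossed block and 0 to 3 with 1 library left out. The cause of these shifts was not tested.

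Replicate numbers are shared in the labels, but the methods state no pairing. The deviations of same-numbered libraries from the means of their genotypes were weakly and negatively correlated across genes (-0.21). Over 13 alternatives Dusp1, Dusp4, Dusp5, Dusp6, Dusp7 and Dusp10 kept their direction, and Dusp7 stayed between -3.49 and -2.74. Dusp2 was -0.078 with quantile normalization. With 1 library left out, Mapk3 ranged from -0.21 to 0.29, Dusp2 from -0.13 to 0.30 and Dusp16 from -0.29 to 0.051. The call rule itself leaves out changes under 2-fold.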

Other observations

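The genes next to the 9 on their chromosomes held 2 calls among 64 tested genes within 250 kb, where 1.7% of all tested genes were called, and both were looked up after the values were seen. Gdpd3, which encodes an enzyme that makes lysophosphatidic acid, starts 594 bases after the end of Mapk3 on the same strand of chromosome 7, from 133909928 to 133919157 of mm9. It had 1.41 and 1.33 FPKM in WT and 109.8 and 122 FPKM in Ets1-/- B cells, while Mapk3 had overlapping values in the same libraries. The mean of Gdpd3 rose 84.4-fold, a log2 fold change of 5.62 (standard error 0.14, limma, BH-adjusted p = 0.00046). Whether transcripts run from Mapk3 into Gdpd3 was not tested, and strain and genotype cannot be told apart for this gene either.

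On chromosome 19, the gene 5830416P10Rik lies 64.3 kb before Dusp5 on the opposite strand. It fell from 11.4 and 11.3 FPKM in WT to 3.42 and 3.46 FPKM in Ets1-/- B cells, 3.30-fold by the means, with a BH-adjusted limma p of 0.0144. The WT mean of Dusp5 was 2.73 times its Ets1-/- mean.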
